A study of Sus scrofa with 2 samples.

Results

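The genes of platelet-derived growth factor (PDGF) signalling, 5 members in all, were followed in cultured porcine adipose-derived stem cells (ADSCs): the ligand genes PDGFA, PDGFB and PDGFC and the receptor genes PDGFRA and PDGFRB. Members were taken by gene symbol from the count tables, which hold 28155 genes, and 4 of the 5 were found by symbol. PDGFB is not analysed here. The ADSCs, adherent stromal progenitors grown from fat, came from chest adipose tissue of Bama miniature pigs labelled healthy. They had been cultured for 3 generations, within 14 days, and frozen. There was 1 group of 2 libraries (1 and 2 in their titles), with no treatment and no control. All cells were therefore passaged cells, and comparisons were made between classes of cells inside both libraries. Whether the libraries represent separate animals or separate cultures is not stated. The p-values measure only how evenly a class difference repeats in these libraries, which may differ only technically. Their spread was largely borrowed across genes.

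PDGF ligands are secreted dimers of A, B, C or D chains, and their receptors are tyrosine kinases that pair when a ligand binds. The A and C chains act mainly through the alpha receptor encoded by PDGFRA, the D chain mainly through the beta receptor encoded by PDGFRB, and the B chain through both. Signalling runs through adaptor proteins to the phosphoinositide 3-kinase and MAP kinase pathways and drives division, migration and matrix production in connective tissue. In mouse fat, PDGFRA marks stromal progenitors and PDGFRB marks progenitors and the mural cells of vessels.

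Transcripts were counted with the Chromium 3' chemistry, in which a transcript is tagged with a unique molecular identifier (UMI) and counts once whatever its length. Barcodes with at least 1000 genes were kept as cells, 10559 in library 1 and 11984 in library 2, with medians of 19845 and 19651.5 UMIs and 4454 and 4537 genes per cell. Of these cell barcodes, 35 occurred in both libraries. Stromal markers were abundant, with 7 of 8 at or above 10 CPM (UMIs scaled to a total of 1e+06) in both libraries. Other cell types left little signal: the summed level was 27.7 and 37.8 CPM over 8 mural markers, 19.2 and 22.3 CPM over 7 endothelial markers, 3.95 and 1.26 CPM over 7 leukocyte markers, 14.2 and 13.5 CPM over 3 platelet markers and 0.906 and 0.811 CPM over 5 fat cell markers. Glial, epithelial and erythroid markers were each under 1 CPM. The pericyte gene RGS5 had a UMI in 0.0417% and 0.0345% of cells at equal depth, and the endothelial gene CDH5 in 0.0104% and 0.00862%. Within the mural list the markers in most cells were CSPG4 (5.79% and 7.89%) and ABCC9 (3.75% and 7.001%). Within the endothelial list they were PECAM1 (5.57% and 7.22%) and EMCN (2.73% and 3.08%). Within the platelet list they were ITGA2B (3.85% and 4.38%) and GP9 (3.32% and 2.36%). Within a summed level, fewer cells expressing a gene and less RNA per cell cannot be told apart.

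Of the ligands, PDGFC was the more abundant in both libraries. PDGFC (chromosome 8, 45579065 to 45808789, build Sscrofa11.1) encodes the C chain, which is secreted in latent form. It stood at 33.5 CPM in library 1 (95% exact Poisson interval 32.7 to 34.3) and 47.0 CPM in library 2 (46.2 to 47.9). PDGFA (chromosome 3, 296399 to 322967) encodes the A chain. It stood at 26.6 CPM in library 1 (25.9 to 27.3) and 27.7 CPM in library 2 (27.0 to 28.4). Among all genes PDGFC ranked 4099 and 3162 by level, and PDGFA 4856 and 4851. These intervals cover counting error only.

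PDGFRA was the most abundant of the 4 members. PDGFRA (chromosome 8, 40966568 to 41021440) stood at 122 CPM in library 1 (120.4 to 123) and 156 CPM in library 2 (154 to 157), at ranks 1135 and 847. PDGFRB (chromosome 2, 151155753 to 151192818) stood at 63.0 CPM in library 1 (61.9 to 64.0) and 62.7 CPM in library 2 (61.7 to 63.7), at ranks 2398 and 2439. The receptors thus differed by 1.94-fold in library 1 and 2.48-fold in library 2, PDGFRA being the higher. The order PDGFRA, PDGFRB, PDGFC, PDGFA was the same in both libraries, with no overlap of the counting intervals between neighbours. A level in this chemistry also depends on how well a gene's 3' end is annotated, which was not tested.

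**Figure D1:**
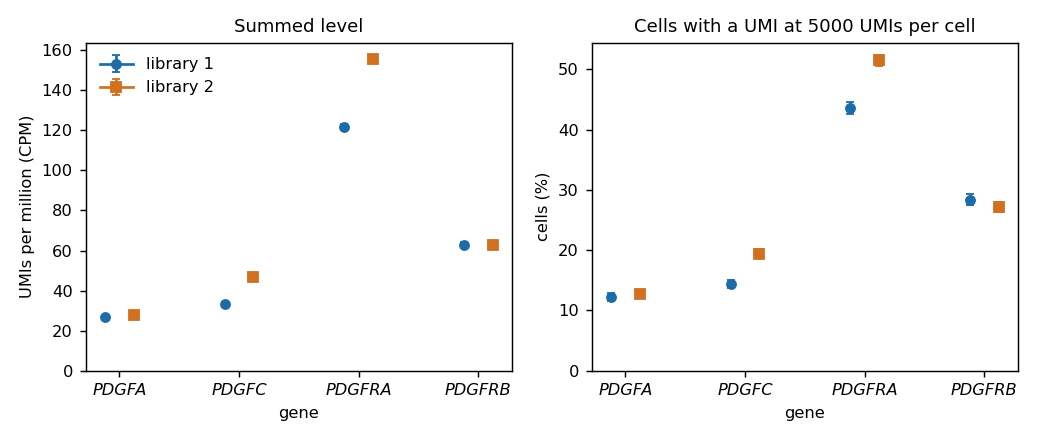
The left panel plots the summed level of each member in CPM and the right panel the percentage of cells with at least 1 UMI after every cell was thinned to 5000 UMIs, with 95% counting intervals. PDGFRA was highest in both panels, at 122 and 156 CPM, and PDGFRB lay near 63.0 CPM in both libraries.

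The libraries differed in PDGFC and PDGFRA and hardly in PDGFA and PDGFRB. The log2 ratio of library 1 to library 2 was -0.49 for PDGFC, -0.35 for PDGFRA, -0.06 for PDGFA and 0.01 for PDGFRB. Each library is a single sample, so no test was possible. No member passed a 2-fold difference, which 2.8% of the 8042 genes at or above 10 CPM passed with library 1 higher and 0.361% with library 2 higher. Genes with a long span in the genome also tended to be lower in library 1: the median log2 ratio was 0.05, 0.00, -0.10 and -0.29 from the shortest to the longest of 4 equal groups of genes. PDGFC lay in the longest group, PDGFRA and PDGFRB in the next and PDGFA in the one after. The part of span in the members' differences was not tested.

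Relatives and partners of the ligands lay on both sides of the members' levels. PDGFD, the gene of the D chain, read 33.8 and 53.5 CPM, between PDGFA and PDGFRB. PDGFRL, which encodes a receptor-like protein, stood at 12.5 and 13.1 CPM. PLAU, the urokinase known to activate the D chain, stood at 130 and 65.4 CPM, and PLAT, the plasminogen activator that activates the C chain, at 24.6 and 15.2 CPM. SPARC, a matrix protein that binds PDGF, was the most abundant of these 10 genes, at 244 and 239 CPM.

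Transcripts of the members were spread over many cells. To compare cells at equal depth, each was thinned at random to 5000 UMIs, which left 9581 cells in library 1 and 11598 in library 2 (978 and 386 shallower cells were left out). PDGFRA was then detected in 43.6% and 51.5% of cells, PDGFRB in 28.4% and 27.2%, PDGFC in 14.4% and 19.4%, and PDGFA in 12.3% and 12.7%. Without thinning the percentages were 79.5 and 86.2 for PDGFRA, 64.3 and 65.9 for PDGFRB, 35.9 and 46.3 for PDGFC, and 34.8 and 36.2 for PDGFA. No cell type known to lack these genes was present in numbers, so the level given by free RNA was not measured.

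PDGFC was the least evenly spread member. Its variance over cells was 1.55 and 1.32 times its mean at equal depth, above 98.1% and 95.2% of genes of like level. The ratio was 1.25 and 1.28 for PDGFRA, 1.06 and 1.10 for PDGFA and 1.08 and 1.07 for PDGFRB, nearer to the median of like-level genes, which lay between 1.03 and 1.09. In library 1, 85.6% of cells had no PDGFC UMI at equal depth, while 33 cells had 4 or more. In library 2, 80.6% had none and 30 had 4 or more.

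The UMIs of a cell that were not among the 5000 drawn gave a second reading of the same cell. Cells with a drawn PDGFC UMI held 76.4 CPM of PDGFC in their undrawn UMIs, against 24.9 CPM in cells with none, in library 1. In library 2 they held 87.5 CPM, against 36.7 CPM. Over 0, 1, 2 and at least 3 drawn UMIs, the undrawn PDGFC level was 24.9, 60.6, 125 and 226 CPM in library 1 and 36.7, 77.1, 109 and 214 CPM in library 2. The ratio of detected to undetected cells was 3.06 and 2.38 for PDGFC, 1.55 and 1.73 for PDGFA, 1.36 and 1.45 for PDGFRA and 1.23 and 1.18 for PDGFRB. Cells detected for a member thus held more of it in the second reading as well, PDGFC by the largest ratio of the 4. Deep cells weigh most in these undrawn sums.

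PDGFRA and PDGFRB were found in the same cells at shares close to the product of their separate frequencies. In library 1, 12.7% of cells had UMIs of both at equal depth (95% exact binomial interval 12.1 to 13.4), beside 12.4% for the product of the single shares. In library 2, 14.6% had both (14.0 to 15.3), beside 14.0%. The remaining cells of library 1 divided into 30.8% with PDGFRA only, 15.7% with PDGFRB only and 40.8% with neither, and those of library 2 into 36.9%, 12.6% and 36.0%. PDGFRB was detected in 29.2% of cells with PDGFRA, against 27.8% of cells without it, in library 1, and in 28.4% against 25.9% in library 2. Pearson's r between the thinned UMIs of both receptors was 0.03 over the 9581 cells and 0.03 over the 11598 cells. Without thinning r was 0.24 and 0.23, where depth is shared by both genes. At equal depth the mean per cell was 0.63 and 0.82 UMIs for PDGFRA and 0.34 and 0.33 for PDGFRB. Counts this low hold the shares near the product and r low even if the levels are linked. Independence of the receptors therefore cannot be concluded. With cells thinned to 10000 UMIs, PDGFRB was detected in 47.3% of cells with PDGFRA, against 43.1% without it, in library 1. In library 2 it was detected in 46.2%, against 42.8%.

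The undrawn UMIs showed a small link between detected and undetected cells and a larger one in the few cells with 3 or more drawn PDGFRB UMIs. Cells with a drawn PDGFRA UMI held 63.1 CPM of PDGFRB in undrawn UMIs, against 58.8 CPM in cells with none, in library 1, and 63.8 CPM against 59.0 CPM in library 2. Cells with a drawn PDGFRB UMI held 124 CPM of PDGFRA, against 116 CPM, in library 1, and 158 CPM against 151 CPM in library 2. Depth differed as well, with medians of 18504 and 17600 UMIs in cells with both receptors, against 21995 and 21452 UMIs with neither. The part of depth in this link was not tested. In the 81 and 74 cells with 3 or more drawn PDGFRB UMIs PDGFRA read 162 CPM (95% exact Poisson interval 138 to 190.4) in library 1 and 211 CPM (183 to 242) in library 2. Undrawn PDGFRB in these cells read 75.9 CPM (59.3 to 95.7) in library 1 and 92.4 CPM (74.1 to 114) in library 2. At 2 drawn PDGFRB UMIs undrawn PDGFRB read 84.4 CPM (77.1 to 92.2) in library 1 and 72.8 CPM (66.7 to 79.3) in library 2. The intervals overlap in both libraries, so whether cells with 3 or more were the richest in PDGFRB cannot be told. PDGFRA in PDGFRA-detected cells was 140.0 CPM against 103 CPM in library 1 and 181 CPM against 125 CPM in library 2. The ligands moved less evenly with the receptors: the ratio of PDGFC in PDGFRA-detected to undetected cells was 1.02 and 0.94, and that of PDGFA was 0.95 and 1.02. Cells with a drawn PDGFA UMI held 110.3 CPM of PDGFRA, against 119.7 CPM in cells with none, in library 1, and 141 CPM against 154 CPM in library 2.

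**Figure D2:**
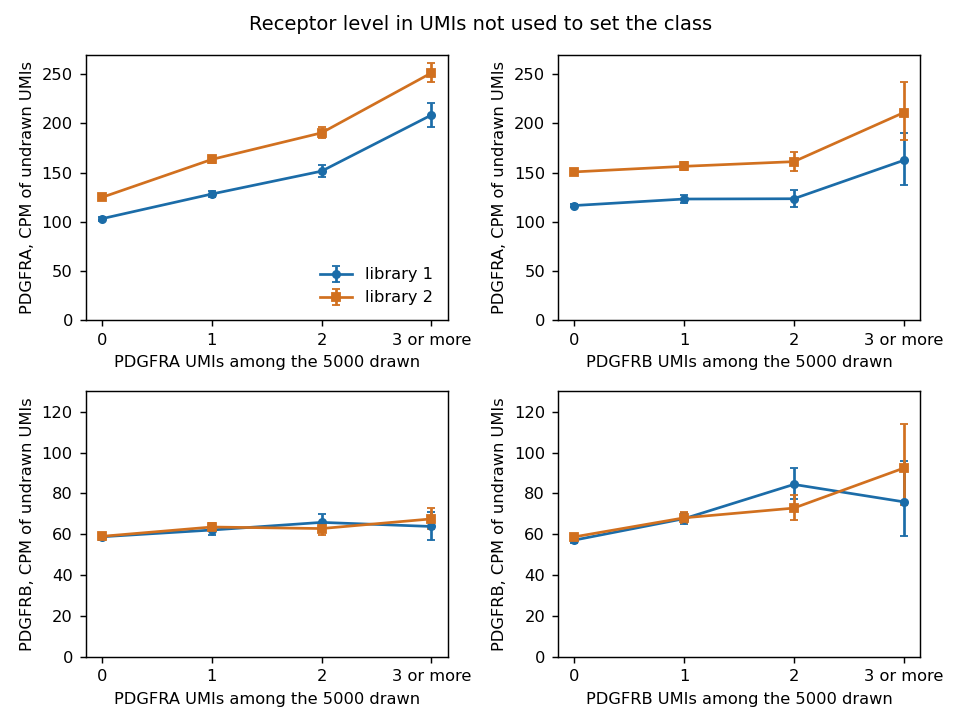
Each panel plots the level of PDGFRA (top row) or PDGFRB (bottom row) in undrawn UMIs, in CPM with 95% Poisson intervals, against the number of drawn PDGFRA (left) or PDGFRB (right) UMIs in the cell. PDGFRA climbed with its own drawn count, to 209 CPM in library 1 and 251 CPM in library 2 at 3 or more UMIs, while PDGFRB read between 58.8 and 67.5 CPM across the drawn PDGFRA counts. PDGFRA was also highest, at 162 and 211 CPM, in the 81 and 74 cells with 3 or more drawn PDGFRB UMIs.

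Few genes were called between cells with a drawn UMI of PDGFRA only and cells with one of PDGFRB only. The classes held 2955 and 1500 cells in library 1 and 4275 and 1457 cells in library 2. They rest on few drawn UMIs and not on absence of a receptor. Over all UMIs, drawn and undrawn, PDGFRB-only cells still held 83.6 and 96.8 CPM of PDGFRA, beside 78.5 and 95.7 CPM in cells with neither. PDGFRA-only cells held 45.5 and 46.7 CPM of PDGFRB, beside 43.1 and 43.4 CPM. These levels are biased low, because the drawn UMIs hold none of that receptor by definition. In undrawn UMIs alone, all cells without a drawn PDGFRA UMI held 103 and 125 CPM of PDGFRA. All cells without a drawn PDGFRB UMI held 57.1 and 58.7 CPM of PDGFRB there. The few calls therefore do not show that cells differing in receptor level are otherwise alike. In edgeR's quasi-likelihood test with Benjamini-Hochberg adjustment over 16766 genes, a gene was called at an adjusted p under 0.05, a log2 fold change of at least 0.5 in size and the same sign in both libraries. The call was made higher for 0.0298% and lower for 0.113% of genes, the receptors that set the classes among them. Of the others, 4 were higher and 18 lower in PDGFRA-only cells, none of them at or above 10 CPM. Among 8040 genes at or above 10 CPM, 89 were higher and 44 lower at an adjusted p under 0.05 alone, with log2 fold changes of at most 0.41 and 0.36 in size. The largest of these changes were in PRSS35 (0.41) and ASPN (0.39), higher, and MT-2B (-0.36) and LOXL2 (-0.36), lower. Genes of G2 and mitosis such as CENPF (0.26), ASPM (0.30), CCNB1 (0.17) and TPX2 (0.16) were among the higher ones and not among the lower. Those 4 were uneven between libraries, at 0.15, 0.17, 0.09 and 0.08 in library 1 and 0.35, 0.41, 0.26 and 0.24 in library 2. Of contractile genes ACTA2 (-0.24) and MYL9 (-0.16) were lower and TPM1 (0.11) higher. The part of cycle phase in these differences was not tested. PDGFA stood at 25.8 CPM in PDGFRA-only cells, against 27.7 CPM in PDGFRB-only cells, in library 1, and at 27.7 CPM against 26.5 CPM in library 2, and its log2 fold change was -0.02 ± 0.05 (SE, adjusted p = 0.938, edgeR). For PDGFC the levels were 32.6 CPM against 33.2 CPM in library 1 and 46.6 CPM against 47.1 CPM in library 2, and the log2 fold change was -0.02 ± 0.07 (adjusted p = 0.964, edgeR). No gene of the 5 pathway lists was called here.

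Genes whose thinned counts followed the receptors most closely over cells included fibrillar collagen genes for both. For PDGFRA, out of 7341 genes, these were COL1A2 (Pearson's r of 0.11 in library 1 and 0.14 in library 2), BNC2 (0.11 and 0.11), COL3A1 (0.10 and 0.15), IL6ST (0.10 and 0.11) and ADAM12 (0.10 and 0.11). For PDGFRB they were COL1A1 (0.10 and 0.09), COL1A2 (0.08 and 0.08), COL3A1 (0.07 and 0.09), NUPR1 (0.08 and 0.07) and MMP2 (0.06 and 0.07). COL1A1, COL1A2 and COL3A1 encode chains of type I and type III collagen, and MMP2 a matrix-degrading protease. At these counts all of the correlations were weak, and cells of 1 library share its depth and preparation.

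Both receptors and PDGFC were somewhat lower, and PDGFA somewhat higher, in cycling cells. Cells in which 3 or more of 15 core cell cycle genes had a UMI at equal depth were called cycling (3803 and 4637 cells). Those with none were called non-cycling (1908 and 2455 cells). On full counts only 456 cells of library 1 and 544 cells of library 2 had none. Most cells called non-cycling at equal depth thus held core gene UMIs that were not drawn. The non-cycling class is therefore low in these genes and not shown to be out of the cycle. Later comparisons inside non-cycling cells rest on this class. PDGFRB stood at 56.4 CPM in cycling cells, against 70.7 CPM in non-cycling cells, in library 1, and at 56.8 CPM against 70.3 CPM in library 2 (log2 fold change -0.37 ± 0.05, adjusted p = 2.52e-09, edgeR). PDGFC stood at 29.4 CPM in cycling cells, against 36.9 CPM, in library 1, and at 42.5 CPM against 50.6 CPM in library 2 (-0.35 ± 0.06, adjusted p = 1.09e-07, edgeR). PDGFRA stood at 115 CPM in cycling cells, against 129.5 CPM, in library 1, and at 149 CPM against 168 CPM in library 2 (-0.23 ± 0.05, adjusted p = 0.000152, edgeR). PDGFA stood at 30.8 CPM in cycling cells, against 23.3 CPM, in library 1, and at 31.6 CPM against 24.1 CPM in library 2 (0.34 ± 0.06, adjusted p = 2.99e-06, edgeR). All 4 had the same sign in both libraries and an adjusted p under 0.05. The adjusted p alone was under 0.05 for 45.3% of the 17002 genes tested, at any size and whether or not the libraries shared a sign. None of the 4 members reached the size limit, so none was called, while 8.38% of genes were called higher and 9.56% lower. With classes set on full counts, where the median depth was 22697 UMIs in cycling cells, against 7984 UMIs in non-cycling cells, in library 1, PDGFC (-0.65), PDGFRB (-0.62) and PDGFRA (-0.53) passed the limit and were called lower.

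Along the number of core genes detected, the receptors took different courses. From 0 through 1 to 2, 3 to 5, 6 to 8 and 9 to 15 core genes, PDGFRB read 70.7, 65.6, 57.3, 54.2 and 57.7 CPM in library 1 and 70.3, 64.9, 59.2, 57.8 and 53.2 CPM in library 2. PDGFRA read 129.5, 122, 101, 112 and 136 CPM in library 1 and 168, 156, 131, 141 and 176 CPM in library 2, lowest in the middle bin and highest in the last. The ratio of PDGFRA to PDGFRB was therefore highest in cells with 9 to 15 core genes, at 2.36 and 3.32. PDGFC was lowest in that bin, at 24.5 and 33.0 CPM, and PDGFA peaked in the middle bins, reaching 34.3 CPM in library 1 and 32.6 CPM in library 2.

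**Figure D3:**
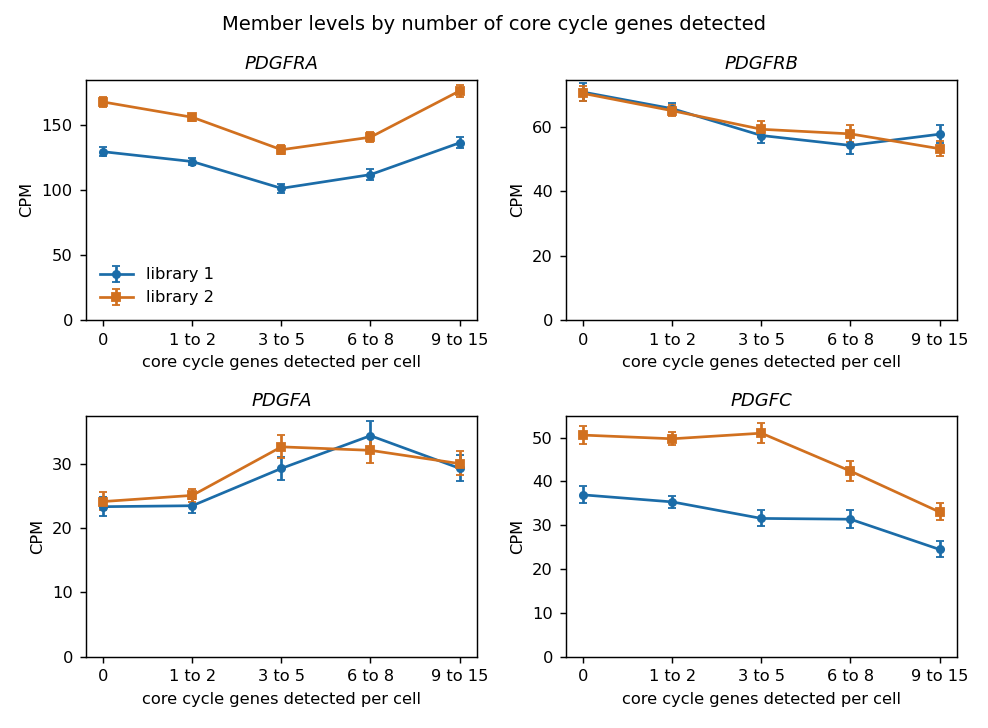
Level of each member in CPM, with 95% Poisson intervals, against the number of core cell cycle genes detected per cell at equal depth, for library 1 and library 2. PDGFRA dipped to 101 and 131 CPM at 3 to 5 core genes and was highest at 9 to 15, while PDGFRB in cycling bins stayed below its level in cells with none.

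Several ligand relatives and processing factors were lower in cycling cells. Of 9 tested, 5 were called lower and 0 higher: PDGFD (log2 fold change -1.28), PDGFRL (-0.96), SPARC (-0.80), LRP1 (-0.62), an endocytic receptor that associates with PDGFRB, and PCSK6 (-0.62), a protease of the proprotein convertase family. The median over the list was -0.62, beside -0.01 over all genes. Among 19 receptor relays only GAB1, a docking adaptor, was called (-0.96), and among 15 negative regulators SPRY1 was lower (-0.52) and SH2B3 higher (0.54). Of 14 early targets, FOSL1 rose (0.59) and MYC (-0.54), CYR61 (-0.66) and CTGF (-0.58) fell. Of 17 other receptor tyrosine kinases 5 were lower, with FGFR2 at -1.25 and ROR2 at -0.99, and 2 were higher, MET at 0.86 and FLT1 at 0.95. Markers moved as well: 4 of 8 stromal markers were lower, and the summed mural level was 24.1 and 32.7 CPM in cycling cells, against 29.9 and 43.8 CPM in non-cycling cells, with none of its 8 genes at 0. Of these, CSPG4 was called higher (0.55), and NOTCH3 (-1.69), ABCC9 (-1.36), KCNJ8 (-1.36), DES (-1.999) and MYH11 (-0.80) lower. The summed endothelial level was 20.1 and 21.9 CPM, against 17.9 and 20.1 CPM, with EMCN called higher (0.79). Their part in the members' differences was not tested.

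Within cycling cells PDGFRA was higher late in the cycle. Cycling cells were ranked in each library by their UMIs of genes of G2 and mitosis over those of DNA synthesis, and the highest 1267 and 1545 cells were set against as many of the lowest. PDGFRA stood at 136 CPM in late cycling cells, against 91.4 CPM in early cycling cells, in library 1, and at 175 CPM against 116 CPM in library 2. The log2 fold change was 0.62 ± 0.03 (adjusted p = 2.64e-15, edgeR), 0.61 in library 1 and 0.62 in library 2, and PDGFRA rose. This call was made higher for 2.57% and lower for 4.32% of the 15379 genes tested. Without the library as a block its adjusted p was 0.668, and with classes set on full counts instead of thinned ones its log2 fold change was 0.32, short of the size limit.

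The other members did not pass the size limit between late and early cycling cells. PDGFRB stood at 60.4 CPM in late cells, against 54.2 CPM in early cells, in library 1, and at 60.5 CPM against 52.7 CPM in library 2 (log2 fold change 0.21 ± 0.04, adjusted p = 0.000302, edgeR). PDGFC stood at 26.7 CPM in late cells, against 33.0 CPM, in library 1, and at 36.6 CPM against 49.5 CPM in library 2 (-0.34 ± 0.05, adjusted p = 2.08e-05, edgeR). PDGFA stood at 32.9 CPM in late cells, against 29.2 CPM, in library 1, and at 32.5 CPM against 30.9 CPM in library 2 (0.15 ± 0.06, adjusted p = 0.0467, edgeR). The ratio of PDGFRA to PDGFRB was 2.25 in late cells, against 1.69 in early cells, in library 1, and 2.89 against 2.20 in library 2. The difference between the receptors in this change was not tested. Of the ligand list only PDGFD was called (-0.57), and no relay, negative regulator or early target was, while INSR (-1.23) and DDR1 (-0.99) were lower among 15 other receptor kinases. Of the mural markers KCNJ8 was lower (-0.52), and the summed mural level was 23.3 and 30.4 CPM in late cells, against 26.3 and 34.2 CPM in early cells.

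Among non-cycling cells PDGFA was higher where contractile genes were high. Cells were ranked in each library by their UMIs of 11 contractile genes, ACTA2 and TAGLN among them. Of those UMIs CALD1 gave 39.5% and 41.1%, TPM1 19.1% and 21.6% and TPM2 16.9% and 13.1%. The highest 25% (477 and 613 cells) were set against the lowest 25%. PDGFA stood at 31.2 CPM in contractile-high cells, against 18.0 CPM in contractile-low cells, in library 1, and at 34.5 CPM against 20.7 CPM in library 2. The log2 fold change was 0.78 ± 0.11 (adjusted p = 0.000586, edgeR), 0.78 in library 1 and 0.76 in library 2, and PDGFA rose. The call was made higher for 5.02% and lower for 5.06% of 13166 genes. Without the library block the adjusted p of PDGFA was 0.217, and with classes set on full counts, where they also differ in depth, it was 0.138. The log2 fold changes of PDGFRA (0.15 ± 0.08, adjusted p = 0.236), PDGFRB (0.07 ± 0.10, adjusted p = 0.695) and PDGFC (-0.14 ± 0.10, adjusted p = 0.386) were not called by edgeR, and PDGFRB had opposite signs in the libraries.

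Several partners of PDGF signalling differed between the same classes. PDGFD (1.19), NRP1 (0.74), a co-receptor that binds PDGF, and SPARC (0.61) rose with the contractile genes, and PLAT (-0.57) and PCSK6 (-0.59) fell, out of 9 in the ligand list. GAB1 rose (1.15) as the only call among 19 relays. Of 15 negative regulators, DUSP4 (-0.94) and DUSP6 (-0.87), phosphatases of MAP kinases, and SPRY2 (-0.58) fell. Of 14 early targets CTGF (0.94), SRF (0.78) and CYR61 (0.69) rose and none fell. Among 14 other receptor kinases FGFR2 (1.66) and ROR2 (1.29) rose, and MET (-2.39), FLT1 (-1.60) and FGFR1 (-0.88) fell. The summed mural level was 38.5 and 48.8 CPM in contractile-high cells, against 23.7 and 39.2 CPM in contractile-low cells, with ABCC9 (1.08) and NOTCH3 (1.85) called among 8 markers and RGS5 at 0 UMIs in the low class of both libraries. The other mural markers tested, KCNJ8 (0.52), CSPG4 (-0.21) and MYH11 (-0.85), were not called. The summed endothelial level was 11.6 and 11.9 CPM, against 23.1 and 29.9 CPM, with EMCN (-3.05) and PECAM1 (-0.66) called lower. CDH5 had 0 UMIs in all 4 sums, but only 7 and 3 UMIs in all cells of the libraries. COL1A1 (0.63) and ENG (0.51) of the stromal list were called higher, as was the fat cell gene FABP4 (6.84), with 38 and 114 UMIs in all cells. Their part in the difference of PDGFA was not tested.

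Both receptors were higher in non-cycling cells with a high share of fibrillar matrix transcripts. The classes were the highest and lowest 25% by UMIs of 11 genes of collagens and associated matrix proteins. PDGFRA stood at 163 CPM in matrix-high cells, against 103 CPM in matrix-low cells, in library 1, and at 213 CPM against 131 CPM in library 2. PDGFRB stood at 86.4 CPM, against 57.9 CPM, in library 1, and at 88.0 CPM against 58.9 CPM in library 2. Both rose, by a log2 fold change of 0.66 ± 0.07 for PDGFRA (adjusted p = 1.83e-05, edgeR) and 0.56 ± 0.08 for PDGFRB (adjusted p = 0.000189, edgeR). The call was made higher for 4.7% and lower for 3.58% of 13003 genes. PDGFC had a log2 fold change of 0.01 ± 0.09 (adjusted p = 0.977, edgeR). PDGFA stood at 19.4 CPM in matrix-high cells, against 26.1 CPM in matrix-low cells, in library 1, and at 22.6 CPM against 25.4 CPM in library 2 (-0.30 ± 0.12, adjusted p = 0.0884, edgeR).

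The matrix classes also differed in depth, with a median of 17336 UMIs in matrix-high cells, against 21781 UMIs in matrix-low cells, in library 1, and 14281 against 23633 UMIs in library 2. Non-cycling cells of low depth held more of both receptors: from the shallowest to the deepest of 4 equal groups PDGFRA read 157, 140, 119 and 123 CPM in library 1 and 220.0, 192, 163 and 142 CPM in library 2, and PDGFRB 91.8, 80.6, 65.8 and 62.1 CPM in library 1 and 90.3, 77.3, 68.8 and 61.6 CPM in library 2. With the matrix classes taken inside each of these 4 depth groups, a setting added once the data had been seen, the medians were 20157 against 20107 UMIs in library 1. The log2 fold change was then 0.58 for PDGFRA and 0.51 for PDGFRB, and both were still called. With classes set on full counts the log2 fold change of PDGFRA was -0.11 and that of PDGFRB 0.20, neither called, and those classes differed in median depth by 15134.5 against 2388.5 UMIs in library 1. Without the library block the adjusted p was 0.554 for PDGFRA and 0.461 for PDGFRB.

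With the matrix genes PDGFRL (1.58), PDGFD (0.82), NRP1 (0.70) and LRP1 (0.50) rose and none fell, out of 8 tested in the ligand list without SPARC, which helped to set the classes. GAB1 (0.91) was the only relay called of 19, and DUSP4 (-0.95) the only negative regulator of 15. EGR1, an immediate early transcription factor, rose (1.04) and FOSL1 fell (-0.52) among 14 early targets. ROR2 (1.21), ROR1 (0.77), EGFR (0.68) and FGFR2 (0.59) rose, and MET (-1.22) and AXL (-0.51) fell, among 14 other receptor kinases. The summed mural level was 33.2 and 56.5 CPM in matrix-high cells, against 28.0 and 34.9 CPM in matrix-low cells, with ABCC9 (1.25) and KCNJ8 (0.95) called among 8 markers. RGS5 had 0 UMIs in library 1 in both classes and, in library 2, 1 UMI in matrix-high and 0 in matrix-low cells. The other mural markers tested, CSPG4 (-0.34), NOTCH3 (-0.52) and MYH11 (-0.54), had negative values and were not called. The markers thus do not move together as a mural cell type would. The part of cells with mural markers in the difference of the receptors was not tested.

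Inflammatory genes and PPARG, the nuclear receptor of fat cell formation, marked no called difference in the members at equal depth. Between the highest and lowest 25% of non-cycling cells by 17 inflammatory genes, of whose UMIs CCL2 gave 58.3% and 59.7%, the log2 fold change was -0.01 ± 0.07 for PDGFRA (adjusted p = 0.984, edgeR). It was 0.00 ± 0.08 in size for PDGFRB (adjusted p = 1.00, edgeR), 0.18 ± 0.11 for PDGFA (adjusted p = 0.544, edgeR) and 0.18 ± 0.09 for PDGFC (adjusted p = 0.387, edgeR). The call was made higher for 1.67% and lower for 0.268% of 13084 genes. Of 14 early targets FOSL1 (1.03), IER3 (0.95), JUN (0.58) and JUNB (0.51) rose and none fell, and of 15 negative regulators SPRY4 rose (0.80).

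Cells with a PPARG UMI at equal depth (191 and 228) were set against those without (1717 and 2227). PDGFC stood at 30.0 CPM in cells with PPARG, against 37.7 CPM in cells without it, in library 1, and at 38.4 CPM against 51.8 CPM in library 2. Its log2 fold change was -0.41 ± 0.10 (adjusted p = 0.00415, edgeR), short of the size limit. With classes set on full counts it was -0.66 (adjusted p = 0.0226, edgeR) and PDGFC was called lower. PDGFRA (0.11 ± 0.07, adjusted p = 0.558), PDGFRB (0.15 ± 0.08, adjusted p = 0.472) and PDGFA (-0.08 ± 0.12, adjusted p = 0.910) were not called by edgeR either. The call was made higher for 0.445% and lower for 0.668% of 14380 genes. In the lists PCSK6 was lower (-0.57), FGFR2 higher (0.62) and MET lower (-1.08), with no call among relays, negative regulators or early targets.

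**Figure D4:**
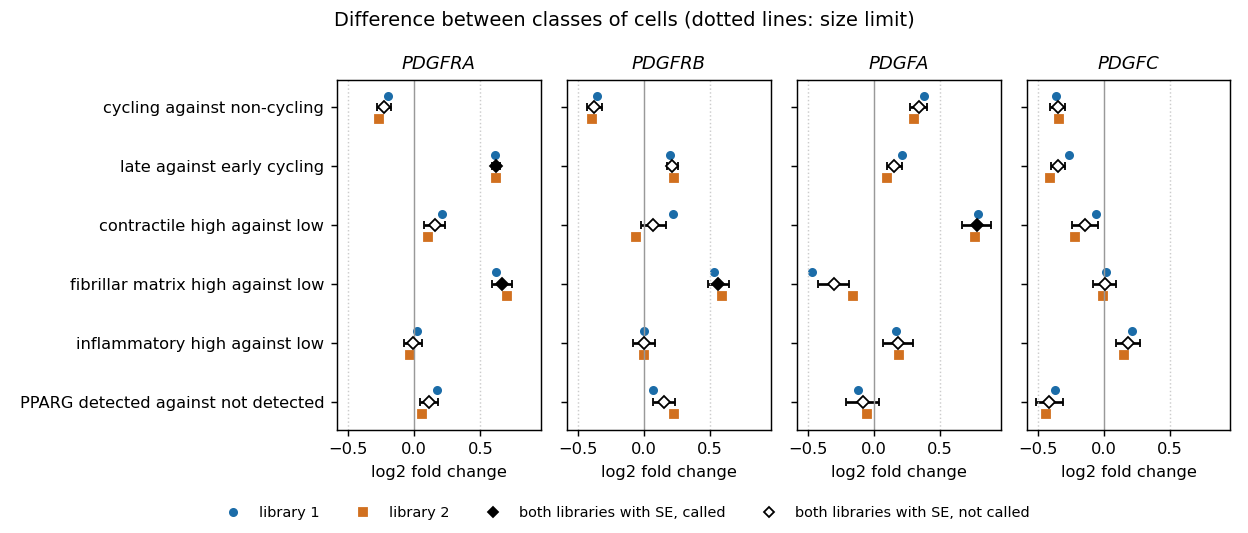
Log2 fold change of each member between 6 pairs of classes of cells, with diamonds for the fit over both libraries (bars: SE; filled where called) and a circle and a square for library 1 and library 2. Called were PDGFRA late in the cycle (0.62) and in matrix-high cells (0.66), PDGFRB in matrix-high cells (0.56) and PDGFA in contractile-high cells (0.78).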

How the data were processed

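Raw UMI counts were deposited as a gene by barcode matrix for each library. Per the file headers the authors used Cell Ranger 7.0.0; the submitters' processing notes name Cell Ranger 7.00 and Sscrofa11.1. Which annotation and cell-calling setting they used is not given in the sources used here. No deposited barcode held fewer than 500 UMIs. Cells needed at least 1000 genes, which left out 1692 and 972 barcodes. Summed over cells, the libraries held 209737159 and 245421850 UMIs. CPM is the summed count scaled to a total of 1e+06. Classes were set after thinning each cell to 5000 UMIs, and tests used full counts summed per library and class, with genes that set a class left out of list counts. No doublet caller was run. Leaving out the 8% of cells with most UMIs was an alternative.

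Both classes of a pair come from the same libraries, so the library is a block by design. Tests used edgeR 4.0.16 (quasi-likelihood, TMM scaling, filterByExpr) in R 4.3.3, with Benjamini-Hochberg adjustment over all genes tested. Each fit of 4 sums left 1 residual degree of freedom (3 for the receptor classes, fitted on all 4 receptor classes together), so the spread was largely borrowed across genes, on which the smallest p-values depend. For the PPARG classes it was borrowed wholly. Classes cut from a ranked score are ranges, not cell types: the cell count exactly at the matrix limits was 25 and 37 in library 1, and 23 and 50 in library 2. On simulated data with 200 genes changed 2-fold, the share recovered was 82% for cycling against non-cycling cells, 83% for late against early, 88.5% for contractile, 81% for inflammatory, 79% for matrix, 64.5% for PPARG and 81% for receptor classes.

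Alternatives were no block, RLE scaling, no filter on low counts, DESeq2 1.42.0, 2000 genes per barcode, other class limits, and leaving out each library. The members, the lists and the tests were chosen with earlier results of these data known. The text names all members found, the list genes that were called, and for each receptor the 5 genes with the highest correlation over cells by the lower of the library values. Called genes of the receptor classes were to be named at 10 CPM or more, and none reached it. The second reading from undrawn UMIs, the levels by depth and the depth-matched classes were chosen after seeing the data. Gene positions come from NCBI RefSeq for Sscrofa11.1.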

Additional observations from a re-analysis of the deposited data

Results flagged for a closer look

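The 1692 and 972 barcodes with fewer than 1000 genes were in no comparison, and all 4 members had UMIs there. In library 1 these barcodes held 146 CPM of PDGFRA, 72.0 CPM of PDGFRB, 42.4 CPM of PDGFC and 32.9 CPM of PDGFA, beside 122, 63.0, 33.5 and 26.6 CPM in cells. In library 2 they held 231 CPM of PDGFRA, 73.7 CPM of PDGFRB, 90.5 CPM of PDGFC and 30.2 CPM of PDGFA, beside 156, 62.7, 47.0 and 27.7 CPM in cells. Whether these barcodes were small cells, damaged cells or droplets with free RNA was not tested.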

How the results depend on the processing

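Leaving out either library left no test. Leaving out library 1 or library 2 gave a log2 fold change of 0.62 or 0.61 for PDGFRA late in the cycle, 0.76 or 0.78 for PDGFA with contractile genes, and, with matrix genes, 0.70 or 0.62 for PDGFRA and 0.59 or 0.53 for PDGFRB. Among values that were not called, the libraries had opposite signs for PDGFRB in contractile classes (0.22 in library 1 and -0.06 in library 2), PDGFRA (0.02 and -0.03) and PDGFRB (-0.00063 and 0.00037) in inflammatory classes, PDGFC in matrix classes (0.02 and -0.0058) and PDGFA in receptor classes (-0.11 and 0.06). Counts of calls have no values without a library, because no residual degree of freedom remains. Without the replicate block the counts called higher and lower were 340 and 70 for cycling (1424 and 1625 with it), 0 and 0 for late cycling, 4 and 1 for contractile, 0 and 0 for inflammatory, 0 and 0 for matrix, 0 and 0 for PPARG, and 0 and 1 for the receptor classes. In edgeR these fits without a block had 1017 (late), 191 (inflammatory), 1055 (matrix), 221 (PPARG) and 113 (receptor classes) genes at an unadjusted p under 0.05, and DESeq2 with the block called genes in each of these comparisons. The called members then had log2 fold changes of 0.62 (PDGFRA, late, adjusted p = 0.668), 0.78 (PDGFA, contractile, 0.217), 0.67 (PDGFRA, matrix, 0.554) and 0.56 (PDGFRB, matrix, 0.461). The residual spread of that fit includes the difference between the libraries.

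DESeq2 called 1013 genes lower for cycling, 201 lower for late cycling, 365 higher and 254 lower for contractile, 70 and 2 for inflammatory, 316 and 120 for matrix, 16 and 13 for PPARG, and 1 and 1 for the receptor classes, where edgeR called 1625, 665, 661 and 666, 218 and 35, 611 and 466, 64 and 96, and 5 and 19. Without the filter on low counts 53 genes were lower for inflammatory, and 21 higher and 34 lower for the receptor classes. Without the 8% of cells with most UMIs the counts were 111 and 6 for inflammatory and 32 and 54 for PPARG. With the highest and lowest 10% of cells 56 were lower for inflammatory. With depth-matched classes, added after seeing the data, 15 were lower for inflammatory and 272 lower for matrix. Receptor classes at 10000 UMIs gave 9 higher, and those of non-cycling cells alone 1 higher and 2 lower. The causes were not tested.

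With classes set without thinning, they also differed in depth. The counts were then 834 higher and 1193 lower for late cycling, 332 and 395 for contractile, 474 lower for inflammatory, 279 higher for matrix, and 26 and 60 for PPARG. The log2 fold change of PDGFRA became 0.32 for late cycling and -0.11 for matrix, that of PDGFRB 0.20 for matrix, and that of PDGFA 0.76 for contractile (adjusted p = 0.138). Members that kept their sign and became called lower without thinning were PDGFC (-0.65), PDGFRB (-0.62) and PDGFRA (-0.53) in cycling cells, and PDGFC (-0.66, adjusted p = 0.0226, edgeR) with PPARG. Among values not called at equal depth, the following had the sign turned without thinning, whether or not they were then called. PDGFRB read -0.0099 for late cycling and -0.040 for PPARG. PDGFC read 0.045 for contractile, -0.64 for inflammatory and -0.34 for matrix. PDGFRA read -0.053 for contractile, and PDGFA 0.71 for matrix and 0.0056 for PPARG. Signs near 0 also turned for PDGFRA for inflammatory without the deepest cells (0.0024), with 10% (0.073) and with depth-matched classes (0.042), for PDGFRB there without the filter (0.00013), with 10% (0.015) and with depth-matched classes (0.068), and for PDGFC for matrix with depth-matched classes (-0.079). Between receptor classes PDGFA read 0.039 at 10000 UMIs and 0.025 in non-cycling cells, and PDGFC 0.016 in non-cycling cells.

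The level of PDGFRB moved by more than the small spread between the libraries, to 62.7 CPM in library 1 at 2000 genes per barcode, 64.1 and 63.9 CPM without the deepest cells and 69.3 and 67.6 CPM as a mean of cells. The mean of cells, in which shallow cells weigh as much as deep ones, was also above the counting interval for PDGFRA (136 and 167 CPM) and PDGFC (39.7 and 51.3 CPM), and PDGFRA without the deepest cells read 123.5 and 159 CPM. The ratio of observed to product for both receptors read 1.06 and 1.03 without thinning, and in library 2 1.02 at 10000 UMIs and 1.03 in non-cycling cells.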
